A study of Mus musculus with 12 samples.

Results

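The regions described here are stretches of open chromatin that were listed in resting graft cells and not in resting host cells of the same mouse brains. Of 60288 merged peaks of untreated mice, 1943 (3.22%) named the peak lists of all 3 CD45.1 libraries and of no CD45.2 library as their parents, and these are the graft-listed peaks. They were chosen by the untreated libraries, so what those libraries show of them is a description without a test, whereas libraries of LPS-treated mice played no part in the choice. The reverse class, listed in all 3 CD45.2 and no CD45.1 untreated libraries, held 900 peaks, and 20240 peaks were listed in all 6 libraries.

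ATAC-seq, in which a transposase inserts adapters into accessible DNA, was performed on brain macrophages of bone marrow chimeras. All mice were C57BL/6J with the genotype given as WT, had received 950 cGy and donor BM, and were examined after 3.5 or 9 months. The labels do not tie an interval to a mouse, and the text of the study names the longer one for these profiles. Mice 4, 5 and 6 were untreated, and mice 1, 2 and 3 had received 2.5 mg/kg lipopolysaccharide (LPS), the endotoxin of Gram-negative bacteria, 12 h before they were killed. From each brain, CD45.1 cells (graft) and CD45.2 cells (irradiated host microglia) were sorted from one gate of CD11b+ cells without Ly6C/G and with low CD45, which gave 4 groups of 3 libraries. The gate does not separate microglia from other brain macrophages of that surface phenotype. The study describes the donor BM as congenic, with CD45.1 alleles. Irradiation history and donor genome go with the CD45 form in every group, so they cannot be told apart from origin. Within 25 Mb of Ptprc, the gene of CD45, lay 47 graft-listed peaks (2.42%), against 1.77% of all peaks. Total tags ranged from 8392877.5 to 9107770 in untreated libraries and from 2966364 to 6556594.5 after LPS, and the CD45.2 library of untreated mouse 4 stood apart with 9.30% of its tags in its own peaks, against 17.6% to 27.2% in the other untreated libraries. Without the list of that library, 1965 peaks met the rule.

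Microglia arise from yolk sac progenitors that seed the brain before birth, whereas macrophages that enter the irradiated brain come from the transplanted bone marrow. Enhancers in macrophages are opened by PU.1 together with partners such as C/EBP, AP-1, RUNX and IRF proteins, and the choice of enhancers differs between macrophages of different tissues and origins. Accessibility marks which of these elements a cell keeps open.

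Several of the members that differed most clearly between graft and host after LPS held short matches to the sites of such factors. Their sequences are shown because the later results refer to them, on the plus strand of mm9, with capitals marking matches on either strand to TTGCNNAA (C/EBP), TGANTCA (AP-1), TGTGGTT (RUNX), GAGGAAGT (PU.1) and GAANNGAAA (IRF). A match is a run of letters and not a bound site. Stap1, which encodes an adaptor of kinase signalling, and Cubn, which encodes an endocytic receptor, carried AP-1 matches, and a C/EBP match lay beside that of Stap1. The member in Mdfic held AP-1, PU.1 and IRF matches, and of the 4 members of Cd36, the scavenger receptor for oxidized lipids, the first along the chromosome held a PU.1 match and the last C/EBP and AP-1 matches. That last Cd36 member was not among the most clearly different ones and did not pass the 4-fold limit after LPS. Members at Hs3st1 and G530011O06Rik, among the 10 with the smallest adjusted p, held none of these matches.
Stap1 intron (chr5:86507839-86507946): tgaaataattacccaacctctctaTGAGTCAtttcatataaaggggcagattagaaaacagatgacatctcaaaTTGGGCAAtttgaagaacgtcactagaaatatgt
Cubn intron (chr2:13331514-13331618): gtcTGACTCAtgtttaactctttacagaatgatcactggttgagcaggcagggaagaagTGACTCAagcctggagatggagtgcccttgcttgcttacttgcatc
Mdfic intron (chr6:15708575-15708710): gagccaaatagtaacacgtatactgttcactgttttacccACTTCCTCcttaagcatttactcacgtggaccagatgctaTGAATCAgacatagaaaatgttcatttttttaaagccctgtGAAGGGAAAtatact
4930474N05Rik (chr14:37130005-37130125): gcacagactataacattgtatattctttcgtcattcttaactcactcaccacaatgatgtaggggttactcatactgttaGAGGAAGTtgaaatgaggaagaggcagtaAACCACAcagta
Cd36 first member (chr5:17345518-17345659): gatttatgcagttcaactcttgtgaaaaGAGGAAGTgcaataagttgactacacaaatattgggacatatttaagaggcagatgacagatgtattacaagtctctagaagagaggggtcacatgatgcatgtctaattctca
Cd36 last member (chr5:17385832-17385982): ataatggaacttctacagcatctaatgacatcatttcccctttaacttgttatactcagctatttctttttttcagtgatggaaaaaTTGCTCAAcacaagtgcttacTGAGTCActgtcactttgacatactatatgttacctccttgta

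A further set is shown because its members are near copies of each other. Sirpb1a, Sirpb1b and Gm5150 belong to the signal-regulatory protein beta family of myeloid receptors, and each had a graft-listed peak about the same distance before its start, at 1676, 1593 and 1663 bases. The peaks of Sirpb1a and Sirpb1b were identical at 101 of 105 aligned bases (96.2%), and that of Gm5150 shared 90 of 100 bases with Sirpb1a and 92 of 100 with Sirpb1b. The same C/EBP letters stood in all of them. Tags from such copies can be placed on the wrong one, so their separate values are uncertain.
Sirpb1a (chr3:15428051-15428155): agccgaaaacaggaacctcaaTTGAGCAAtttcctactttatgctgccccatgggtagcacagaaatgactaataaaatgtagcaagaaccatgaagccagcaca
Sirpb1b (chr3:15576605-15576711): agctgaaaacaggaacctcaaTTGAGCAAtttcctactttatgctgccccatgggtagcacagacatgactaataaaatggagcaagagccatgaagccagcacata
Gm5150 (chr3:15907923-15908068): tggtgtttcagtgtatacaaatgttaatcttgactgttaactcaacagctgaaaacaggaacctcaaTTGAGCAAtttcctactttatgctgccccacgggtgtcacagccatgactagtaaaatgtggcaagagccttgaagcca

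At rest, graft-listed peaks held a modest level of accessibility in CD45.1 cells and a low but measurable one in CD45.2 cells. Levels are given as tags divided by a library's size factor, scaled within each treatment. After LPS the medians over all peaks were lower, at 13.5 to 14.2, so levels are not on one scale across treatments. The median over the 1943 peaks was 30.3, 30.1 and 34.8 normalized tags in CD45.1 cells of mice 4, 5 and 6, and 6.55, 5.81 and 7.71 in CD45.2 cells. All untreated peaks had medians between 26.2 and 27.2 in the same libraries. In every mouse the graft-listed peaks thus stood slightly above the typical peak in the graft and far below it in the host. They held 2.58% ± 0.18 (SD, n = 3) of all merged-peak tags in graft libraries and 0.593% ± 0.046 in host libraries. In these bulk profiles, a site open in fewer cells and a site less open in each cell cannot be told apart.

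**Figure D1:**
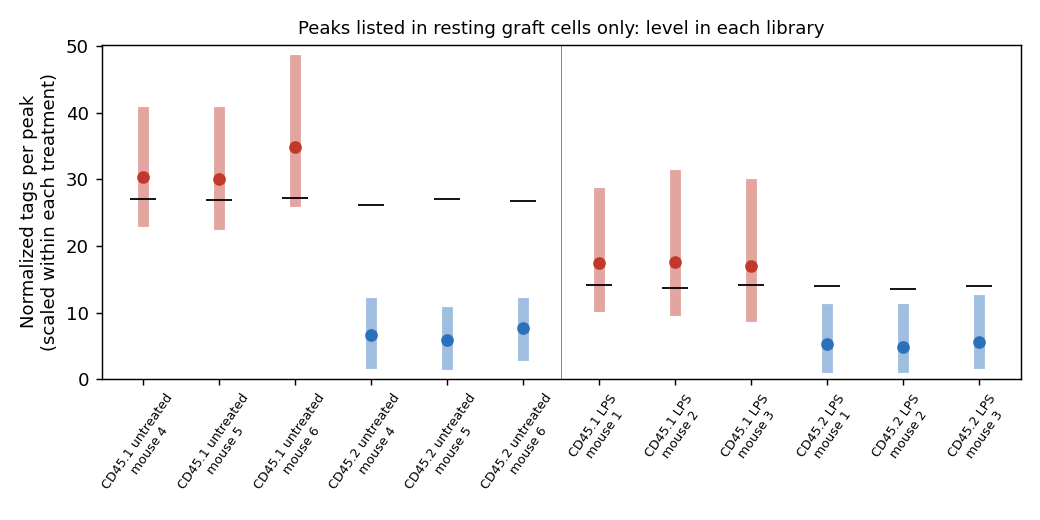
Normalized tags per graft-listed peak in each of the 12 libraries, with the dot at the median, the bar from the lower to the upper quartile and the black dash at the median of all peaks in that treatment's table. CD45.1 medians were 30.1 to 34.8 untreated and 16.98 to 17.6 after LPS, and CD45.2 medians 5.81 to 7.71 and 4.80 to 5.64.

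Absence from the CD45.2 lists did not mean absence of tags. Graft-listed peaks with at most 3 tags in every CD45.2 untreated library numbered 314 (16.2%), and 15 had no CD45.2 tag at all. The lists named in the merged table also differ from the deposited list of each library. Headers of the deposited lists give a false discovery rate of 0.001, whereas the methods of the study describe a relaxed peak call followed by a filter on reproducibility. Which threshold the lists named in the merged table carry is not given in the sources used here. By the deposited lists, 679 members (34.9%) overlapped a CD45.2 peak in at least 1 untreated mouse, 36 of them in all 3, whereas all 1943 overlapped a CD45.1 peak in all 3. The overlap was 3.60% of members in mouse 4, 21.3% in mouse 5 and 28.4% in mouse 6, against 57.3%, 83.6% and 83.0% of all untreated peaks.

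The 3 CD45.1 values lay above all 3 CD45.2 values at 1873 members (96.4%, against 17.8% of all peaks tested), and 1129 of 1941 members with enough tags were called (adjusted p below 0.01 and over 4-fold, DESeq2 Wald test), against 3.78% of all peaks. Nothing is read from these counts, since the same libraries chose the members. The median log2 difference was 2.28 (quartiles 1.51 and 3.47). Just outside the rule, the 1730 peaks named in 2 CD45.1 and no CD45.2 lists had a median of 1.28, and the 1249 named in 3 CD45.1 and 1 CD45.2 lists a median of 0.83.

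Some members were nearly as open in the host as in the graft. The log2 difference was under 1 at 172 members, and 70 of these (40.7%) lay within 500 bases of a merged peak that did name a CD45.2 list, against 102 of the other 1769 (5.77%). At the promoter of Fez2, which encodes an adaptor of axon growth and autophagy, CD45.1 cells had 118, 99.9 and 74.6 normalized tags and CD45.2 cells 129, 81.3 and 91.7, and a peak naming CD45.2 began 57 bases away. At Trmt112, a cofactor of methyltransferases, the values were 84.9, 75.3 and 87.7 against 85.2, 65.0 and 64.1, with such a peak 60 bases away. At both, graft and host values overlapped, and the rule kept them through the names of the lists. A pair of members near Selplg, the P-selectin ligand, likewise had host values as high as graft values, with means of 34.3 ± 5.38 against 32.8 ± 3.68 and of 30.7 ± 7.43 against 31.2 ± 2.90 (SD, n = 3).

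Graft-listed peaks were mostly distal and poor in G and C. Intergenic positions made up 45.9%, introns 43.5% and promoters 6.64% (129 peaks), whereas promoters were 11.7% of the reverse class, 43.4% of peaks in all 6 libraries and 22.2% of all peaks. The median distance to the nearest start was 22204 bases, against 25478 in the reverse class and 1516 among peaks of all libraries. The median GC content of a 200-base window was 44.5%, against 52.0% in the reverse class, 57.0% in peaks of all libraries and 52.0% over all peaks. LINE elements covered the centre of 7.26% of members and 2.65% of all peaks, and LTR elements that of 5.56% and 4.80%. The median width was 135 bases. These shares are a description, as are those of the motifs.

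In 200-base windows, C/EBP letters were found in 20.0% of graft-listed peaks, 8.33% of the reverse class, 8.28% of peaks in all libraries and 9.82% of all peaks. RUNX letters stood in 10.8%, 3.78%, 4.38% and 5.65%, and AP-1 letters with 1 spacer base in 15.4%, 8.89%, 7.05% and 8.11%. IRF letters stood in 18.5% of members and 10.8% of all peaks, and PU.1 letters in 12.3% and 9.45%. The matches CTAAAAATA (MEF2), GGANTTTCC (NF-kappaB), TGCTGAC (MAF), CACGTG (E-box), CNAGGGGGC (CTCF) and TGANNTCA (AP-1 with 2 spacer bases) were searched too. MEF2 letters stood in 1.75% of members (34 peaks), 0.778% of the reverse class, 0.346% of peaks in all libraries and 0.514% of all peaks. For AP-1 letters with 2 spacer bases the shares were 12.9%, 11.8%, 8.88% and 8.94%. NF-kappaB letters came to 1.08% of members and 1.01% of all peaks, and E-box letters to 4.27% and 5.65%. CTCF letters were rarer in members (0.823%) than in all peaks (3.20%), and MAF letters stood in 7.0% of members, 9.89% of the reverse class, 5.23% of peaks in all libraries and 5.38% of all peaks. Both strands were read, and a MAF match can share bases with an AP-1 match.

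Base composition moved with some of these shares. Among windows with 40 to 50% GC, C/EBP letters stood in 19.9% of 1130 members and 13.6% of 22494 peaks, RUNX letters in 11.6% and 7.70%, and AP-1 letters in 15.8% and 10.6%. IRF letters came to 18.3% of members and 16.3% of peaks there, but to 20.5% of peaks in all 6 libraries. PU.1 letters came to 13.9% and 12.6%, and were more common in the reverse class (15.1%) and in peaks of all 6 libraries (16.6%) than in members. The excess over all peaks was smaller within the band for C/EBP, RUNX, AP-1, IRF and PU.1 letters, and among these smallest for IRF and PU.1.

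**Figure D2:**
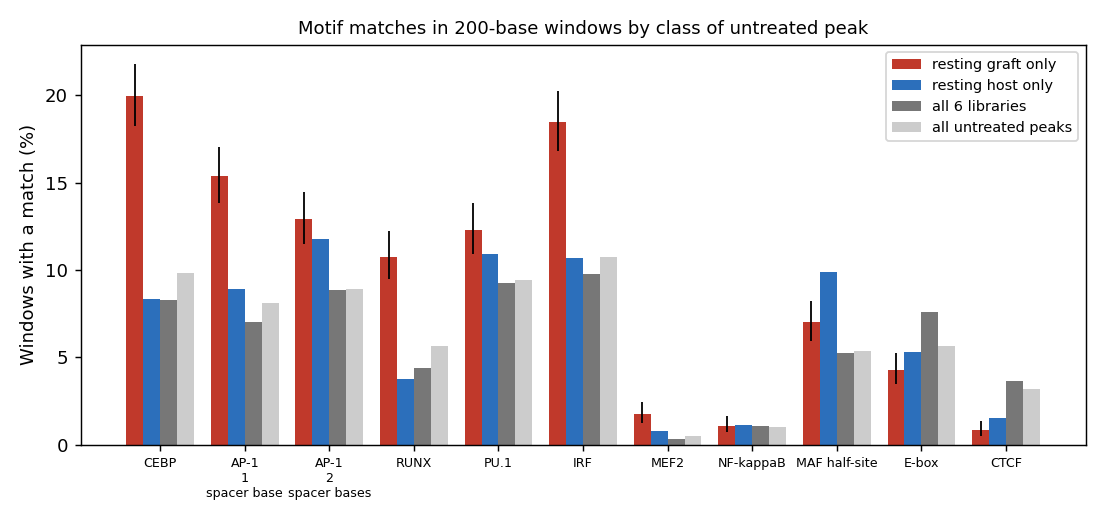
Share of 200-base windows that hold each motif, in percent, for graft-listed peaks (red), the reverse class (blue), peaks of all 6 untreated libraries (dark grey) and all untreated peaks (light grey), with 95% Wilson intervals on the red bars. C/EBP letters stood in 20.0% of graft-listed and 8.33% of host-listed peaks.

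Followed into the LPS-treated mice, 1586 graft-listed peaks (81.6%) overlapped a merged LPS peak by at least 1 base, and 357 did not. The share was 82.2% in the reverse class, 98.7% for peaks of all untreated libraries and 74.1% over all untreated peaks. Members that were found again had a median CD45.1 level of 33.7 normalized tags at rest, and those that were not had 26.8. The share found again went up with the resting level, from 67.3% in the lowest quartile of members to 94.0% in the highest. LPS libraries were shallower than untreated ones, and the part of depth in the loss of members was not tested.

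Peaks with different motifs differed in how often they were found again, among members and over the whole table. Of members with AP-1 letters, 96.3% (288 of 299) had an LPS peak, and of those without, 79.0%. Over all untreated peaks, the shares were 87.0% and 73.0%. Members with C/EBP letters were found again in 88.7% and those without in 79.9%, and over all untreated peaks the shares were 79.3% and 73.6%. With IRF letters the share was lower, at 71.6% of members against 83.9% without, and likewise at 66.2% and 75.1% over all untreated peaks. Each of these motifs thus went with the same direction in the whole table. Median resting CD45.1 levels of members were 34.3 normalized tags with AP-1 letters and 32.0 without. They were 33.5 and 31.9 for C/EBP, and 32.8 and 32.1 for IRF. The part of resting level in these shares was not tested.

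The lists behind the LPS peaks named CD45.1 more often than CD45.2. Of the 1586 peaks, 947 (59.7%) named CD45.1 lists alone, 615 (38.8%) named lists of both populations and 24 (1.51%) named CD45.2 lists alone. The strict pattern of all 3 CD45.1 and no CD45.2 lists held at 406, and all 6 LPS lists were named at 168. In the reverse class, 72.3% of the 740 found again named CD45.2 alone and 25.5% named both. Against the deposited list of each LPS library, graft-listed peaks overlapped a CD45.1 peak in 74.4%, 56.3% and 59.4% of cases in mice 1, 2 and 3. All untreated peaks did so in 55.8%, 43.1% and 50.6%. A CD45.2 peak was overlapped by 10.7%, 22.5% and 32.0% of graft-listed peaks and by 37.9%, 54.1% and 60.2% of all untreated peaks. Total tags of the CD45.2 libraries rose from 2966364 in mouse 1 to 6556594.5 in mouse 3, and the part of depth was not tested.

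After LPS, accessibility at graft-listed peaks was tested in mice that had not been used to choose them, but a member could be tested only where those mice gave a merged peak with a count over 10, and 468 of the 1943 had none. Of 1475 members whose LPS peak had enough tags, 378 (25.6%) were called higher in CD45.1, with an adjusted p below 0.01 and over 4-fold (DESeq2 Wald test with Benjamini-Hochberg adjustment over all 49180 peaks), whereas the same call held for 1.78% of all peaks. Without a fold limit, 663 (44.9%) were higher in CD45.1 with an adjusted p below 0.05, against 4.08% of all peaks. None was higher in CD45.2 at that threshold, where 2.38% of all peaks were. At an unadjusted p under 0.05, 1 member was higher in CD45.2, and edgeR's quasi-likelihood test gave 1 with an adjusted p below 0.05 and 4 at an unadjusted one. The 3 CD45.1 libraries lay above all 3 CD45.2 libraries at 1103 members (74.8%, against 14.1% of all peaks). Over all 1943 members, tested or not, the called ones were 19.5% and those with an adjusted p below 0.05 were 34.1%.

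Many members entered the test through the graft, where they were chosen to be open. Of the 1475, 847 had an LPS peak that named CD45.1 lists alone, with 332 of the 378 called, and 714 (48.4%, against 8.92% of all peaks tested) exceeded a count of 10 in CD45.1 libraries alone. The shares over the tested members are therefore a description. Members that entered through the host as well, with an LPS peak naming a CD45.2 list and a count over 10 in a CD45.2 library, numbered 599. Of these, 43 (7.18%) were called and 192 (32.1%) were higher in CD45.1 with an adjusted p below 0.05 (DESeq2), against 0.195% and 1.64% of the 41487 peaks of the whole table that met the same conditions. Their median log2 difference was 0.90, against -0.09 over those peaks. None of the 599 was higher in CD45.2 with an adjusted p below 0.05.

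The median log2 difference after LPS was 1.56 (quartiles 0.85 and 2.58) over the members and -0.01 over all peaks. It stayed at 1.56 with the 16 members that had no CD45.2 tag set to their lower bound. The fitted difference was above 0 at 1400 of 1475 members and below 0 at 75. On the scale of log2(normalized tags + 1), the members' median difference was 1.46 in mouse 1, 1.57 in mouse 2 and 1.31 in mouse 3, so each animal had the same direction. CD45.1 exceeded CD45.2 at 93.0%, 92.5% and 89.3% of members, and at 51.2%, 49.2% and 49.5% of all peaks. With each animal as a block and a correction for GC content, the counts of 378 and 663 were 185 and 352. The count of 378 also rested in part on single libraries, since it was 186 without CD45.2 mouse 2, 200 without CD45.2 mouse 3 and 236 without CD45.1 mouse 2, and the count of 663 was 383, 414 and 431.

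The share of tags at the members was also set beside that at rest. After LPS, graft-listed peaks held 2.68% ± 0.05 of a graft library's merged-peak tags and 1.06% ± 0.09 of a host library's (SD, n = 3). The CD45.2 share was above the 0.593% ± 0.046 at rest, while the CD45.1 share was close to the 2.58% at rest. The LPS figures cover the 1585 LPS peaks that overlapped a member, in a table merged and counted apart from the untreated one, so the treatments are set side by side and were not tested.

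How few host tags a member had at rest went with how far it differed after LPS. Of members with at most 3 tags in every resting CD45.2 library, 172 of 225 (76.4%) were called and the median log2 difference was 3.90. Where the highest resting CD45.2 count was over 3 and up to 10, 154 of 480 (32.1%) were called with a median of 2.05. Where it was over 10, 52 of 770 (6.75%) were called with a median of 1.04. Members could enter these groups through CD45.1 tags alone, so the shares are a description. Members with no CD45.2 peak in any deposited untreated list were called in 34.9% (328 of 941), and those with one in 9.36% (50 of 534). Across 1474 members the log2 differences at rest and after LPS, which come from different mice, had a Pearson r of 0.79. It describes peaks that share sequence and base composition and carries no p.

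**Figure D3:**
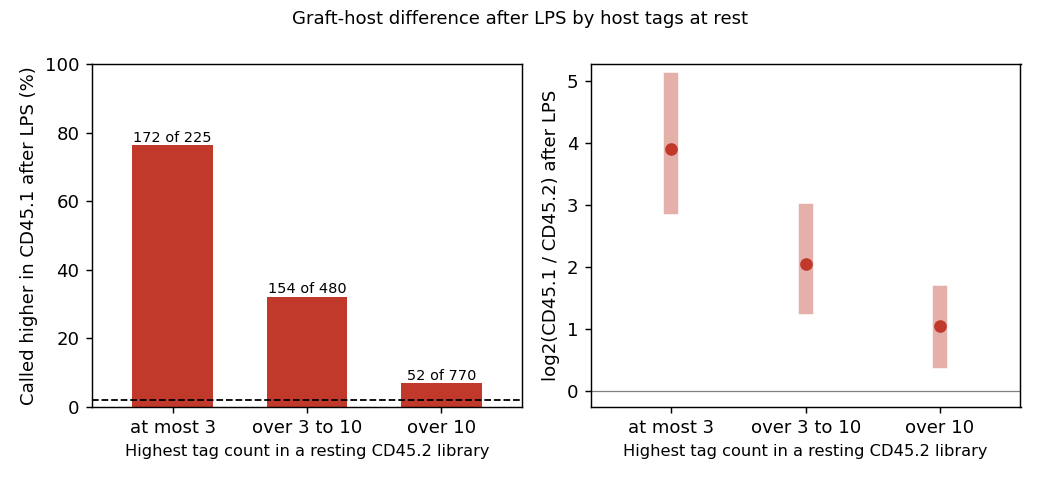
Graft-listed peaks grouped by their highest tag count in a resting CD45.2 library. Left, share called higher in CD45.1 after LPS in percent (76.4%, 32.1% and 6.75%), with the dashed line at the 1.78% of all peaks. Members could enter the test through CD45.1 tags alone, so the line is not a matched comparison. Right, median (dot) and quartiles (bar) of log2(CD45.1 / CD45.2) after LPS, with medians of 3.90, 2.05 and 1.04.

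Called shares differed less between positions and between the commoner motifs, and each is a description beside the 1.78% of all peaks. After LPS, 27.4% of promoter members, 21.9% of intron members and 29.2% of intergenic members were called. With RUNX letters the share was 30.6% and with IRF letters 32.1%, against 25.04% and 24.4% without them. Members with C/EBP and with AP-1 letters were called in 27.3% and 30.2%, against 25.2% and 24.6% without them. Rarer features gave 1 of 18 members with NF-kappaB letters, 0 of 10 with CTCF letters and 12 of 33 (36.4%) with a SINE element at the centre.

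The members with the smallest adjusted p after LPS were led by the Stap1 intron. Its normalized tags were 61.6, 52.9 and 94.2 in resting graft cells and 0, 0.774 and 3.65 in resting host cells. After LPS they were 125, 145 and 126 in graft and 9.63, 10.5 and 22.6 in host cells, a log2 difference of 3.06 ± 0.31 (SE; DESeq2, adjusted p = 3.26e-19). Graft values lay far above host values in both treatments, whose scales differ. At the promoter of Hs3st1 (chr5:40035887-40036017), which encodes a heparan sulfate sulfotransferase, graft cells had 205, 201 and 130 at rest and 76.4, 110 and 119 after LPS. Host cells had 6.55, 5.81 and 1.62 at rest and 5.25, 5.67 and 4.45 after LPS (log2 difference 4.33 ± 0.44, DESeq2 adjusted p = 3.91e-19). Host values there were low in every mouse. It was also the member with the highest mean resting graft level, 179 ± 42.2.

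The Mdfic intron, in a gene for an inhibitor of MyoD-type factors, had 109, 119 and 89.6 normalized tags in graft and 10.5, 8.72 and 11.9 in host cells after LPS (log2 difference 3.34 ± 0.34, DESeq2 adjusted p = 1.09e-18). At rest the values were 111, 122 and 107 against 4.92, 4.26 and 1.62. Every graft value there lay far above every host value of the same treatment. In the Cubn intron, graft cells had 35.4, 23.7 and 70.8 at rest and 116, 142 and 161 after LPS. Host cells had 1.64, 0 and 6.09 at rest and 44.7, 27.0 and 26.4 after LPS (log2 difference after LPS 2.17 ± 0.26, DESeq2 adjusted p = 5.33e-13). The LPS peak there was wider than the resting peak, so levels at rest and after LPS are set side by side and were not tested. Graft values lay above host values in every mouse of both treatments.

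The Cd36 member at 3874 bases before the start, in the first intron of a longer transcript, had 90.9, 78.5 and 79.5 normalized tags in resting graft and 0, 1.94 and 0.812 in resting host cells. After LPS the values were 56.6, 58.7 and 96.2 against 3.50, 6.98 and 4.16 (log2 difference 3.82 ± 0.47, DESeq2 adjusted p = 6.15e-13). The groups did not overlap in either treatment. At the Cd36 member 8870 bases inside the gene, which holds the C/EBP and AP-1 letters, host cells had 4.10, 0.774 and 4.46 at rest and 23.6, 17.9 and 29.1 after LPS, and graft cells 60.2, 45.6 and 72.4 at rest and 48.5, 60.01 and 87.7 after LPS. The difference there was 1.45 ± 0.34 (DESeq2 adjusted p = 0.000799), which passed the adjusted p but not the 4-fold limit.

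Sirpb1a and Sirpb1b had similar values, which may share tags. The Sirpb1a member had 63.1, 69.8 and 74.5 normalized tags in graft and 3.50, 2.62 and 4.75 in host cells after LPS (log2 difference 4.19 ± 0.49, DESeq2 adjusted p = 5.07e-14). The Sirpb1b member had 62.3, 93.3 and 95.3 against 6.13, 4.36 and 8.61 (log2 difference 3.64 ± 0.41, DESeq2 adjusted p = 4.88e-15). Close by on chromosome 3, a member assigned to the neighbouring gene model Gm9733 had 128, 136 and 108 in resting graft and 8.19, 3.48 and 7.71 in resting host cells, and 53.8 ± 4.32 against 5.28 ± 3.15 after LPS.

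The rest of the leading group lay 12343 bases or more from the nearest annotated start. A pair of members at 12343 and 18259 bases before the start of G530011O06Rik on the X chromosome (chrX:166429133-166429252 and chrX:166435053-166435164) had mean graft levels of 91.0 ± 4.26 and 91.8 ± 7.12 normalized tags after LPS and host levels of 1.57 ± 1.21 and 1.62 ± 1.80 (log2 differences 5.71 ± 0.65 and 5.32 ± 0.58, DESeq2 adjusted p = 5.78e-15 and 2.03e-16). A member 221914 bases from 4930474N05Rik had 72.4 ± 22.4 in graft and 4.20 ± 3.25 in host cells after LPS (log2 difference 4.44 ± 0.54, DESeq2 adjusted p = 3.12e-13). All were above their host values in every mouse. Merged peaks that named a CD45.2 list lay 85 and 685 bases from the G530011O06Rik members, and the first of these members was annotated at a transcript end.

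**Figure D4:**
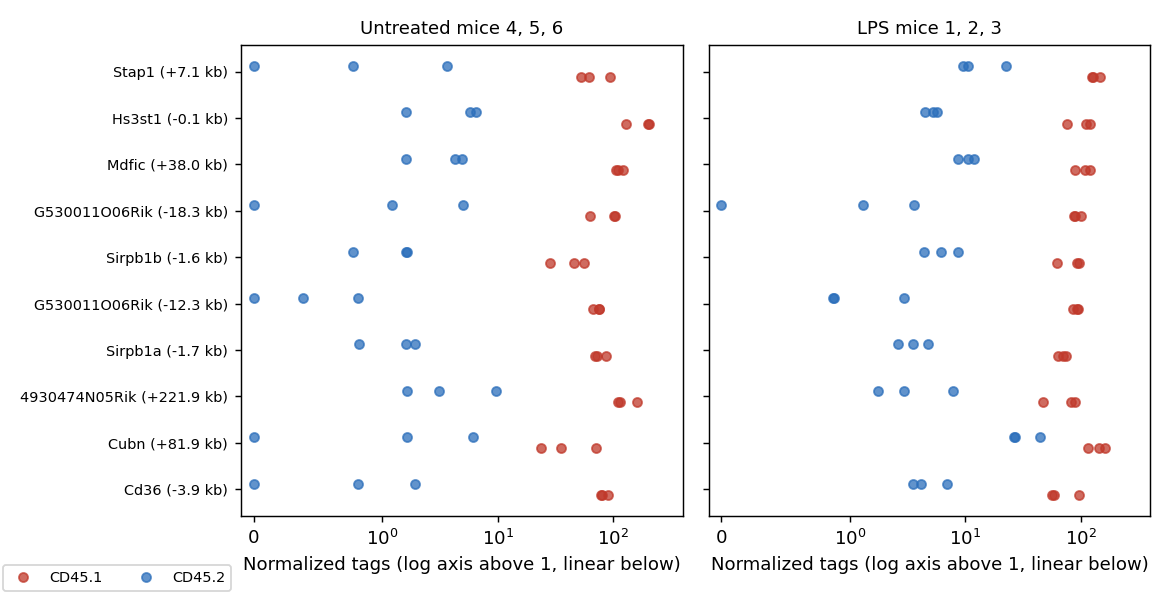
Normalized tags in each mouse for the 10 members with the smallest adjusted p after LPS, graft (CD45.1, red) and host (CD45.2, blue), in untreated mice (left) and LPS mice (right), with the distance from the nearest start in parentheses. The axis is logarithmic above 1 and linear below. Red points lie to the right of blue points at every member in both treatments.

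At promoters, the strongest resting members after Hs3st1 were those of Apoe and Dynlt1b. Apoe encodes the lipid carrier apolipoprotein E, and its promoter member (chr7:20284414-20284570) had 128, 106 and 125 normalized tags in resting graft and 12.3, 8.51 and 10.5 in resting host cells. After LPS the graft had 42.0, 49.6 and 18.9 and the host 11.4, 6.98 and 6.23 (log2 difference 2.32 ± 0.49, DESeq2 adjusted p = 0.000204). A merged peak that named a CD45.2 list lay 503 bases away. Dynlt1b, a dynein light chain gene with near-identical neighbours on chromosome 17, had 119 ± 13.1 against 1.58 ± 1.32 at rest. After LPS its promoter had 74.4, 56.8 and 60.9 in graft and 0, 1.74 and 0.297 in host cells, a ratio of 88.8 with a 95% counting interval of 24.97 to 362 on 2.5 host tags. Tags there can be shared among the gene copies.

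Fez2 and Trmt112 promoters, open in both populations at rest, also had overlapping groups after LPS. Fez2 had 73.1 ± 12.7 in graft and 60.2 ± 9.40 in host cells (log2 difference 0.32 ± 0.26, DESeq2 adjusted p = 0.649), and Trmt112 had 26.3 ± 9.05 and 29.1 ± 14.7 (-0.20 ± 0.41, DESeq2 adjusted p = 0.905).

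Of the members without an LPS peak, those with the highest resting level included sites near inducible genes. A member 1627 bases before the start of Fos, the immediate early AP-1 subunit (chr12:86813143-86813306), had 76.0, 96.3 and 111 normalized tags in graft and 49.2, 61.1 and 64.9 in host cells. In the 3′ UTR of Ier5, another immediate early gene, the values were 62.0, 53.4 and 71.3 against 27.0, 30.6 and 31.2. A member before Herpud1, a gene of the endoplasmic reticulum stress response, had 49.4, 67.5 and 56.6 against 16.4, 19.7 and 15.8. In each of these the graft lay above the host in every mouse, and host cells held tags as well. A member near A430035B10Rik had 70.3 ± 8.23 against 50.6 ± 5.95. A member assigned to Myo5c, 71249 bases before its start and in an intron of another transcript, differed from them, with 71.8, 68.5 and 68.1 against 6.55, 0.774 and 5.27. No merged LPS peak overlapped any of these 5.

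Some members lay close together along a chromosome. Of the 1943, 711 (36.6%) lay within 50 kb of another and 1232 stood alone. The share that peaks of other classes give was not computed. Runs of 4 or more members with gaps of up to 50 kb numbered 33 and held 153 members. The genes with most members were Bmp2, Sema6d and Sash1 with 7 each and Mdfic and Gnat3 with 6. Nearest starts assign a peak to a gene and do not say which gene it acts on. Called counts of the genes and runs below, with at most 9 tested members each, are a description. They are read beside the 25.6% of tested members and 1.78% of all peaks called higher in CD45.1 after LPS. With an adjusted p below 0.05 (DESeq2), these shares were 44.9% and 4.08%. Members could enter the test through CD45.1 tags alone.

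At Bmp2, which encodes a bone morphogenetic protein, 7 of the 8 untreated peaks assigned to the gene were members, from 93269 bases before the start to the promoter. The member at 1570 bases before the start had 58.3, 61.2 and 57.2 normalized tags in graft and 3.28, 3.10 and 5.68 in host cells at rest, and the promoter member had 52.7, 42.0 and 41.4 against 5.74, 7.35 and 4.46. Every graft value exceeded every host value at both. After LPS, 3 of 6 tested Bmp2 members were called, with fitted log2 differences from 1.40 to 3.40 over the 6. The promoter member had 11.8 ± 1.21 in graft and 1.37 ± 0.446 in host cells after LPS (log2 difference 3.40 ± 0.96, DESeq2 adjusted p = 0.00996).

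Sema6d encodes a semaphorin that binds plexins, and its 7 members, of 15 assigned peaks, stretched from 31083 to 122315 bases downstream of its start. The peaks around the start itself were open in both populations and were not members. The member nearest to the start had 40.1, 35.6 and 31.0 normalized tags in resting graft and 2.46, 1.94 and 0.812 in resting host cells. After LPS it had 39.6, 63.3 and 34.4 in graft cells and no tag in any host library, which was at least 49.6-fold higher in CD45.1, computed at 3 tags over the host group. After LPS, 3 of 4 tested Sema6d members were called.

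**Figure D5:**
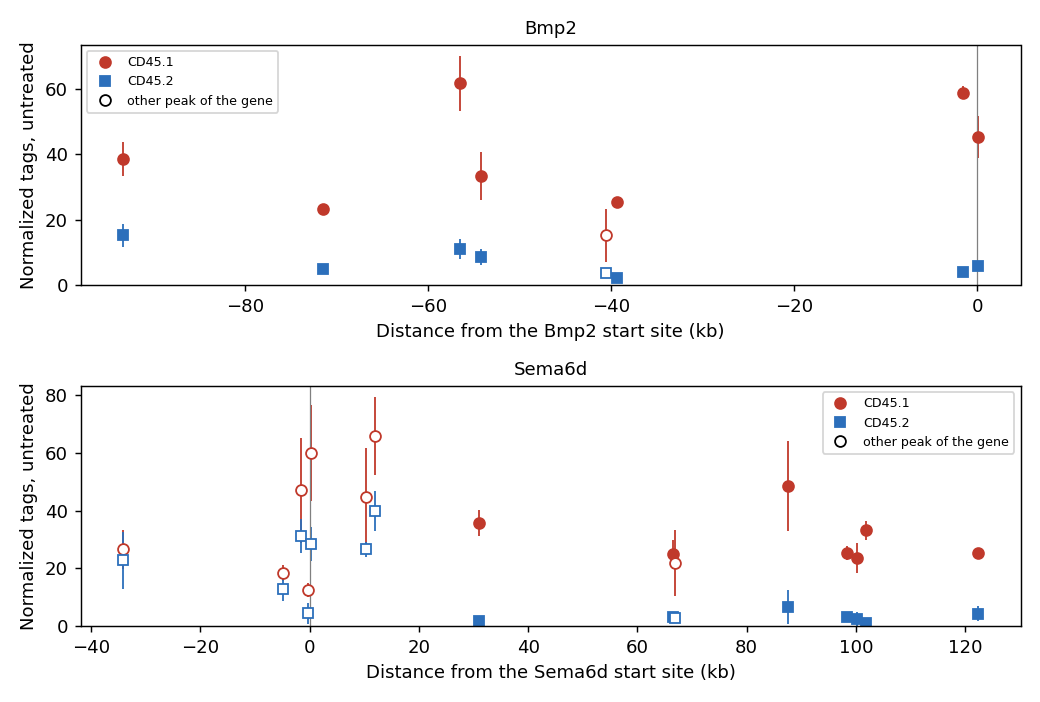
Untreated levels (mean and SD over 3 mice, normalized tags) of all merged peaks assigned to Bmp2 and Sema6d against the distance from the start site in kb. Filled symbols are graft-listed peaks and open symbols other peaks of the gene. All 7 graft-listed Bmp2 peaks have graft means of 23.2 or more, and Sema6d peaks around the start are open in both populations.

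Sash1, which encodes a scaffold protein of toll-like receptor signalling, had members of smaller difference. Of 6 tested after LPS, 1 was called and 4 passed an adjusted p below 0.05, with log2 differences from 1.24 to 2.58. Mdfic had 4 of 5 tested members called, and all 5 passed an adjusted p below 0.05. The 6 members assigned to Gnat3, a taste receptor G protein, lay next to the 4 of Cd36, and these 10 of 18 peaks spanned 197 kb (chr5:17345518-17542238). After LPS, 4 of 9 tested in this span were called, and since a pair of Gnat3 members shared an LPS peak, these were 8 distinct LPS peaks.

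Other runs lay in families of myeloid genes. All 4 members in the run of Serpinb2, an inhibitor of plasminogen activators made by activated macrophages, were called after LPS. In the run around the formyl peptide receptors Fpr1 and Fpr2, with 5 members, 1 of 5 tested was called, and around the resistin-like genes Retnla, Retnlb and Retnlg the 5 members included 2 with an LPS peak. The run of 4 members at Cd93 and Thbd, surface proteins of myeloid and endothelial cells, had 2 of 3 tested called. The 4 members at Ms4a6c, Ms4a6b and Ms4a4d and the 4 at Ms4a7 and Ms4a4a, genes of membrane proteins of macrophages, included none that was called (0 of 4 tested in each).

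Gene lists put the members beside known functions. Members were 3.22% of all untreated peaks, and the share in each list is read beside that. The genes that the study names for grafted cells had 29 members among their 142 untreated peaks (20.4%), in 13 genes, and a list the study chose on cells of these chimeras is not independent evidence. Members of that list after LPS numbered 25 tested, of which 7 were called and 10 were higher in CD45.1 with an adjusted p below 0.05, with a median log2 difference of 1.91. Over all tested members the called share was 25.6% and the median 1.56, and over all LPS peaks 1.78% and -0.01. Counts of the further lists, with at most 9 tested members each, are read beside the same shares and beside the 44.9% of members and 4.08% of peaks with an adjusted p below 0.05. Besides Cd36 and Apoe, Cd38, an enzyme that consumes NAD, had a member in its first intron with 63.0, 66.2 and 60.4 against 12.3, 6.19 and 8.52 at rest and a log2 difference of 2.18 ± 0.51 after LPS (DESeq2 adjusted p = 0.000939). Genes that the study names for host microglia had 7 members among 184 peaks (3.80%, near the share of all peaks), 5 of them at Gpr65, a proton-sensing receptor. One of these, 107042 bases downstream of its start, had 30.7, 24.1 and 43.9 in graft and 0, 0 and 2.37 in host cells after LPS (log2 difference 4.86 ± 0.85, DESeq2 adjusted p = 2.79e-06). A member assigned to P2ry12, the purinergic receptor of microglia, had 33.1, 42.4 and 32.7 in graft and 2.46, 8.51 and 9.74 in host cells at rest. It lay 21083 bases from the P2ry12 start, in intron 20 of 43 of a long transcript. After LPS its difference was 1.61 ± 0.76 (DESeq2 adjusted p = 0.261).

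Transcription factors of the blood lineage had 10 members of 320 peaks (3.12%, near the 3.22% of all peaks). Of 6 tested after LPS, none was called and 1 was higher in CD45.1 with an adjusted p below 0.05. That was a member 38298 bases before Runx1, a factor of haematopoietic stem cells, with 49.0, 43.8 and 113 in graft and 11.5, 5.03 and 12.98 in host cells at rest and a log2 difference of 1.19 ± 0.38 after LPS (DESeq2 adjusted p = 0.0325). Members at Runx3 numbered 3 and at Klf4 2. AP-1 and MAF factor genes had 7 of 190 peaks (3.68%, also near that share), 3 of them at Maf. The Maf member with the highest resting level had 69.3 ± 40.3 in graft and 7.23 ± 4.33 in host cells at rest, and 51.2 ± 11.04 and 35.9 ± 1.68 after LPS (log2 difference 0.51 ± 0.30, DESeq2 adjusted p = 0.445). Its host level after LPS was near that of the graft, whereas at rest it was far below.

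Cytokine and chemokine receptor genes had 11 members of 214 peaks (5.14%), 4 of them at Cxcr4, the receptor of CXCL12, and 3 of 9 tested passed an adjusted p below 0.05 after LPS. The Cxcr4 member 22728 bases before the start had 66.2, 61.6 and 99.1 in graft and 9.83, 6.58 and 19.5 in host cells at rest, with a difference of 1.89 ± 0.45 after LPS (DESeq2 adjusted p = 0.00141). The promoter of Ccr1, a receptor of inflammatory chemokines, had 41.0, 37.9 and 67.5 against 8.19, 8.13 and 4.06, and a difference of 1.41 ± 0.46 after LPS (DESeq2 adjusted p = 0.0364). Pathogen sensing genes had 8 members of 127 peaks (6.30%), each at another gene, and 2 of 8 tested were called. Near Tlr4, the receptor of LPS, a member 30635 bases upstream had 17.8, 24.8 and 27.8 in graft and 6.13, 6.11 and 2.67 in host cells after LPS (log2 difference 2.33 ± 0.58, DESeq2 adjusted p = 0.0022). Near Tlr13, a sensor of bacterial RNA, the member had 44.8 ± 7.01 against 8.73 ± 2.65 at rest but 23.4 ± 7.71 against 23.4 ± 8.22 after LPS (0.10 ± 0.42, DESeq2 adjusted p = 0.958). Antigen presentation genes had 5 members of 60 peaks and adhesion genes 6 of 140, with 0 of 3 tested with an adjusted p below 0.05 after LPS in each.

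Marker genes of other cells were checked among the members. Of 45 peaks at markers shared by macrophages and microglia, none was graft-listed. Markers of border-associated macrophages had 5 of 22 peaks (22.7%), at Pf4 (2), F13a1, Cd163 and Mrc1, and 1 of 5 tested was called after LPS. The promoter of Pf4, a platelet factor that these macrophages also make, had 25.7, 31.5 and 28.9 in graft and 4.92, 5.42 and 6.09 in host cells at rest. After LPS its log2 difference was 1.74 ± 0.86 (DESeq2 adjusted p = 0.296), and that of the other Pf4 member 1.27 ± 0.68 (DESeq2 adjusted p = 0.364). At the F13a1 member the groups overlapped after LPS (0.64 ± 0.81, DESeq2 adjusted p = 0.819). The Cd163 intron, in the haemoglobin scavenger receptor gene, had 11.3, 9.13 and 14.2 against 0, 1.74 and 0 after LPS, a ratio of 20.0 with a 95% counting interval of 5.15 to 171 on 2 host tags. Monocyte markers had 0 of 11 peaks, B cell markers 0 of 8, astrocyte markers 0 of 33 and endothelial markers 0 of 21. Neutrophil markers had 2 of 8, both at Retnlg, T and NK cell markers 2 of 28, neuron markers 2 of 11, both at Map2, and oligodendrocyte markers 1 of 26. At the 3.22% of all peaks, lists this short hold few members or none, so counts this small are not read as results. The part of border-associated macrophages in the graft-listed peaks was not tested.

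Among the T and NK cell markers, a member in the first intron of Il7r, the interleukin-7 receptor, had 29.4, 26.5 and 27.8 in graft and 12.3, 10.1 and 9.33 in host cells at rest. After LPS it had 51.3, 67.8 and 101 against 30.7, 16.6 and 16.6 (log2 difference 1.87 ± 0.35, DESeq2 adjusted p = 1.44e-05). Graft values at Il7r lay above host values in both treatments. At Klrb1c, the only other of the 11 listed genes with a member, the log2 difference after LPS was 0.83 ± 0.55 (DESeq2 adjusted p = 0.533). Members at 2 of 11 genes are not read as a result about these cells.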

How the data were processed

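Per the labels, brain macrophages were sorted as CD45.1 and CD45.2 cells from the same animals. The submitters' processing notes name bcl2fastq 2.17.1.14, Bowtie2, Picard 1.108, HOMER and mm9, and a shift of read ends is not given in the sources used here. The authors merged the 6 peak lists of each treatment and deposited unnormalized tags per merged peak, which here served as estimated counts (expected counts), moved in steps of 0.5 and were rounded. The deposited peak lists carry heights as a depth-scaled signal, and their coordinates were used. DESeq2 1.42.0 in R 4.3.3 fitted each table alone, without a block, after dropping peaks that nowhere exceeded a count of 10. edgeR 4.0.16 was an alternative. All fits ran over the whole table. Only the DESeq2 and edgeR fits with default settings were tried on simulated LPS counts. Changes were placed there in peaks with a mean count of at least 20, which is above the host level of most members. Named members were the 10 with the smallest adjusted p after LPS, the 5 with the highest CD45.1 level at rest among all members, at promoters and without an LPS peak, those of the 5 genes with most members and up to 4 of each gene list. No member met the rule of an adjusted p below 0.05 with CD45.2 higher. Gm5150 and the runs were picked after their values or sequences were seen. The members and lists were chosen with earlier results of these data known. Same-numbered libraries come from the same animal, and their deviations correlated with r of 0.08, 0.08 and 0.09 (mice 4, 5, 6) and of -0.07, 0.06 and 0.15 (mice 1, 2, 3). Sequences are from NCBIM37. Intervals cover counting error only, and 3 mice a group limit the precision.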

Additional observations from a re-analysis of the deposited data

How the results depend on the processing

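The graft-host difference of the members after LPS kept its direction under every alternative run. With each animal as a block (the pairing), 262 members were called and 455 passed an adjusted p below 0.05, and none of the counts named here moved by over 1.5 times; with the block and a GC correction, 185 and 352 did, and the median log2 difference was 1.41. A mean count of at least 20 left 413 tested members, with 86 and 203 and a median of 1.13. Among members with at most 3 tags in every resting CD45.2 library, 172 were called, 205 passed and the median was 3.90. Members that entered the test through CD45.2 as well, an alternative chosen after seeing the data, gave 43 called of 599, 192 with an adjusted p below 0.05 and a median of 0.90. Members off all deposited CD45.2 untreated lists, an alternative chosen after seeing the data, had a median of 1.96. Leaving out each LPS library gave 186 to 313 called members, 383 to 550 with an adjusted p below 0.05 and medians of 1.499 to 1.66. edgeR called 473, placed 913 with an adjusted p below 0.05 and put 1 member higher in CD45.2. Scaling by total tags moved the median of all peaks to 0.14 and that of the members to 1.68. The share of members with an LPS peak was 73.3% with reciprocal overlap of at least 50%, 61.6% with a peak in at least 2 CD45.1 lists and 83.5% for members with at least 20 tags in every CD45.1 library. In the peak as deposited, C/EBP, AP-1 and RUNX letters stood in 16.6%, 12.9% and 8.96%. Leaving out each untreated list gave 1965 to 2764 members, and the deposited lists gave 2222. Of 120 refits of the 10 leading members, 119 stayed called, and Cubn had a log2 difference of 2.00 without CD45.2 mouse 3, just under the 4-fold limit. Low LPS depth limits members whose host peaks hold a few tags, where an undetected host signal cannot be told from none.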
